A study of Mus musculus with 8 samples.

Results

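Hox genes encode homeobox transcription factors that lie in 4 clusters, and the 39 coding genes named Hoxa, Hoxb, Hoxc or Hoxd with a number were taken by symbol from the 55401 genes of the deposited count table. They comprised 11 genes of cluster A (chr6:52155590-52260880, 105.3 kb), 10 of cluster B (chr11:96194316-96368256, 173.9 kb), 9 of cluster C (chr15:102921103-103036852, 115.8 kb) and 9 of cluster D (chr2:74668310-74765142, 96.8 kb), in GRCm38 coordinates. RNA had been sequenced from 8 lines of mouse embryonic fibroblasts (MEFs), 4 homozygous null for SLMAP3 (SLMAP3-/-, lines KO1 to KO4) and 4 wild type (WT1 to WT4), with 1 library per line. All lines came from E14.5 embryos of the B6C3F1 strain, from the body left once head and organs had been taken away, and were transfected after passage 2 with SV40 large T antigen, so that controls and knockouts alike are immortalized cells. The null allele was made by CMV-driven Cre deletion of floxed exon 3 of Slmap. The sources do not say whether lines of a genotype came from separate litters, so p-values measure the spread between these lines. The headers of the deposited table give KO3 and WT4 the same number, 10, without stating what it marks.

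Each line was sequenced to between 49879059 and 63322486 estimated counts. Slmap lay between 32.7 and 44.3 counts-per-million (CPM) in the SLMAP3-/- lines and between 124 and 143 CPM in the WT lines, a log2 fold change of -1.84 ± 0.11 (SE; adjusted p = 0.00119, edgeR). Fibroblast markers were high throughout, and the 8 listed genes summed to 15704 to 21389 CPM in the SLMAP3-/- lines and 18581 to 23447 CPM in the WT lines. Summed markers of epithelium (1.12 to 5.84 CPM), blood (1.97 to 4.94 CPM) and skeletal muscle (0.268 to 0.442 CPM) were low in all 8 lines, and Myod1 and Cldn5 were at 0 counts in each. Nes, an intermediate filament gene of neural progenitors and other cultured cells, made up most of the neural sum of 85.6 to 437 CPM, with Tubb3 at 8.90 to 22.2 CPM, Sox2 at 3.41 to 15.4 CPM and Elavl3 at 0.03 to 1.53 CPM, and Sox10, Neurog2 and Pax6 at or below 0.12 CPM. Cartilage markers summed to 19.2 to 66.3 CPM. Of the 5 listed cartilage genes, 3 reached 1 CPM in at least 1 line, and Col9a1 stayed at or below 0.02 CPM. Endothelial markers summed to 9.45 to 40.5 CPM, with Kdr at 7.87 to 28.4 CPM, Tek at 1.55 to 12.2 CPM and Cdh5 and Pecam1 at or below 0.23 CPM. Tek had a log2 fold change of 1.41 ± 0.55 (SE) and an adjusted p of 1.00 in edgeR (unadjusted p = 0.032).

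In the embryo, the order of Hox genes along each cluster follows the order of the body regions in which they are active. Low-numbered paralog groups act in the hindbrain and neck, middle groups in the thorax, and groups 9 to 13 in the lumbar, sacral and tail regions and, for clusters A and D, in the limbs from shoulder to digits. Fibroblasts keep much of this code in culture, so that the set of Hox genes a line transcribes is commonly read as a record of where in the body its cells came from.

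Group 13 held the most abundant transcripts, and the homeoboxes of its 4 members are shown because their similarity bears on how reads could be assigned. The homeobox encodes the DNA-binding homeodomain and lies in exon 2 of 2 in each gene. Positions are chr6:52258928-52259107 (minus strand) for Hoxa13, chr11:96196020-96196199 (plus) for Hoxb13, chr15:102927210-102927389 (plus) for Hoxc13 and chr2:74669930-74670109 (plus) for Hoxd13, in GRCm38. Capitals mark the 98 bases that are the same in all 4 genes.
Hoxa13: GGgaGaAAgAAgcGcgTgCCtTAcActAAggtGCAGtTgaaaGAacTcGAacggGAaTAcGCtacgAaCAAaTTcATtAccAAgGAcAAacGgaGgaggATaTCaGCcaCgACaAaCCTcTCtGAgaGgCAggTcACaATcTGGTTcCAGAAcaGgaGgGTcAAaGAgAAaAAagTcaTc
Hoxb13: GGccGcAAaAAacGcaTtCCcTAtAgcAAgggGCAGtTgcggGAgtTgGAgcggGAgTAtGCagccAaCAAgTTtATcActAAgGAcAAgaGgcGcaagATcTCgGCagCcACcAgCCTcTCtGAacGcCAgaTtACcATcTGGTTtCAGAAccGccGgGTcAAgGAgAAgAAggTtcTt
Hoxc13: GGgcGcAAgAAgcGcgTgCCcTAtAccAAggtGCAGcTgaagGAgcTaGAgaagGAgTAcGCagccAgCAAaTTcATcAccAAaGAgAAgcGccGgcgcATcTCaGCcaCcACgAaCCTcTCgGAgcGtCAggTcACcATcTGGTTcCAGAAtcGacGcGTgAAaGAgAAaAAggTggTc
Hoxd13: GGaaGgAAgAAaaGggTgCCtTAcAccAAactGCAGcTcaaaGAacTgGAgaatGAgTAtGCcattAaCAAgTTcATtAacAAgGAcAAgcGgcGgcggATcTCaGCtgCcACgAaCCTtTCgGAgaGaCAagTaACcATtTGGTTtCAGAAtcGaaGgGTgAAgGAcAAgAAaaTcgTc
Pairs of these homeoboxes were identical at 67.2% (Hoxb13 and Hoxd13) to 77.2% (Hoxa13 and Hoxc13) of bases, and the longest run without a difference was 14 bases. Over their whole transcripts, Hoxd13 and Hoxb13 shared no stretch of 31 bases with any other annotated transcript, and Hoxa13 and Hoxc13 shared 0.619% and 0.0823% of theirs. In all, 9 of the 39 Hox genes shared no such stretch and 6 shared over 5%. The highest shares were those of Hoxd3 (61.1%) and Hoxd4 (49.1%), whose exons overlap on the same strand together with the readthrough gene Gm28230, so the split of counts between them is uncertain. Hoxd11 shared 10.5%, mostly with the readthrough gene Gm28309, which itself took 459 to 854 counts per line. Hoxc10 shared 7.34%, all with Hoxc5.

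Promoter sequence is shown for the outer genes of cluster D, because Hoxd13 was the most abundant Hox gene and Hoxd1 had no count in any line. The RefSeq table (GRCm38.p6) held 24 promoters for 22 of the 39 genes, each running from 250 bases before to 50 bases after the start. Capitals mark CG dinucleotides, the sites of DNA methylation. The windows are chr2:74667975-74668274 for Hoxd13 and chr2:74762730-74763029 for Hoxd1, both on the plus strand.
Hoxd13: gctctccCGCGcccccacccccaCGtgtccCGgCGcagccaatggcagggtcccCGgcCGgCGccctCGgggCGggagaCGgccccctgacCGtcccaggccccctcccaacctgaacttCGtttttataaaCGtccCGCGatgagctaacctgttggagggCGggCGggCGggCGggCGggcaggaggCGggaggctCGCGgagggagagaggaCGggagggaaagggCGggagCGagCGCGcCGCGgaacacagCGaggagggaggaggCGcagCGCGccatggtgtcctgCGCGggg
Hoxd1: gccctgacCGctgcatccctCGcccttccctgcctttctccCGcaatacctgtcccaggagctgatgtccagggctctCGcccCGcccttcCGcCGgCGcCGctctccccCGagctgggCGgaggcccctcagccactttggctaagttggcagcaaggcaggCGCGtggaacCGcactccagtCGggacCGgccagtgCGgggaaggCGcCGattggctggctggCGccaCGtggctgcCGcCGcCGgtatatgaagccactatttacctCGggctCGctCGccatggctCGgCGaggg
The Hoxd13 window held 37 CG dinucleotides, more than 94.4% of the 32851 promoters of the table, and the Hoxd1 window held 29, more than 87.1%. Hoxa13 had 45, more than 98.1%. Hox promoters held 4 to 45, against a median of 7 over all promoters. The letters TAATTA, a core recognised by many homeodomains and its own reverse complement, were present in 2 of the 24 Hox windows (8.33%), both of Hoxd11, and in 5.29% of all windows.

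The 8 lines had a ground pattern in common: posterior genes of clusters A and D were high, and clusters B and C were low. At a limit of 1 CPM, 13 of the 39 genes were detected in all 8 lines, 7 of them in cluster A and 6 in cluster D, with none from clusters B or C. A further 13 were detected in 1 to 7 lines and 13 in no line. Among the latter, Hoxb1 and Hoxd1, which belong to the most anterior group and act early in hindbrain patterning, had 0 counts in all 8 lines, where a count of 0 allows 3 counts per library, or 0.0474 to 0.0601 CPM. Between 13 (KO1) and 23 (KO4 and WT1) Hox genes reached 1 CPM in a line. All Hox genes together took 0.0367% to 0.0514% of the counts of a line. Such intervals and floors cover counting error only.

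**Figure D1:**
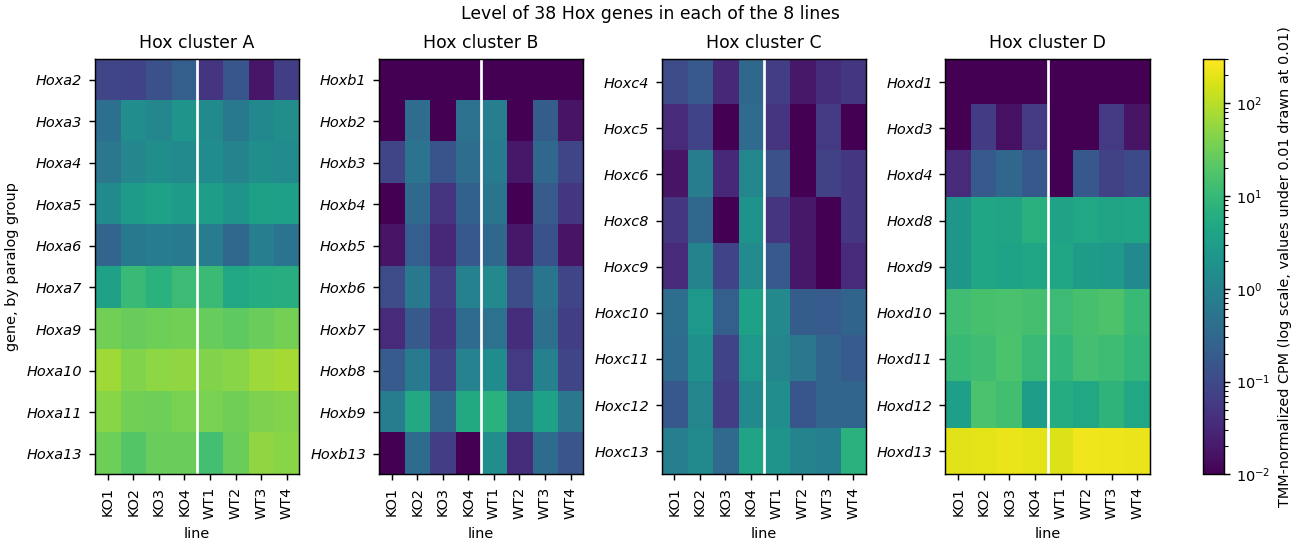
Level of each of 38 Hox genes (rows, by cluster and paralog group) in each of the 8 lines (columns, SLMAP3-/- lines KO1 to KO4 left of the white line, WT1 to WT4 right of it), as TMM-normalized CPM on a logarithmic colour scale with values under 0.01 drawn at 0.01. Hoxd13 is the brightest row, between 176 and 238 CPM, and the columns of KO2, KO4 and WT1 are brighter than their neighbours in clusters B and C.

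Hoxd13, which with Hoxa13 directs formation of the digits and the genital tubercle, was the highest Hox gene in every line. It was at 192, 199, 219 and 200.3 CPM in KO1 to KO4 and at 176, 238, 229.7 and 225 CPM in WT1 to WT4, from 9939 to 13660 counts. The lines of both genotypes overlapped, and the highest was only 1.35-fold above the lowest. Hoxd13 alone made up 45.3% to 55.6% of the counts on Hox genes in a line. Per kilobase of transcript it averaged 84.6 ± 8.56 CPM per kb (SD, n = 8 lines), rank 2351 among the 15461 tested genes, and it exceeded the next Hox gene in 8 of 8 lines.

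Hoxa13 measured 31.5, 19.3, 28.9 and 29.0 CPM in KO1 to KO4 and 13.5, 30.1, 55.1 and 48.8 CPM in WT1 to WT4. Its lowest and highest lines were both WT, and they differed 4.07-fold. Per kilobase it averaged 41.6 ± 18.0 CPM per kb over the 8 lines with the median length of its 6 annotated transcripts, but 13.4 CPM per kb with the longest transcript, so its place in the order depends on that length.

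Hoxc13, known for its part in hair and nail formation, was the highest gene of cluster C at 0.898 ± 0.931 CPM per kb. It was at 0.831, 1.40, 0.337 and 4.06 CPM in the SLMAP3-/- lines and 2.06, 1.03, 0.851 and 7.11 CPM in the WT lines. The WT4 value rested on 418 counts and stood above every other line, although the other 3 tested genes of cluster C in WT4 were between 0.204 and 0.289 CPM. Hoxb13, active in the tail and prostate, did not pass the filter on low counts. It measured 0, 0.380, 0.0643 and 0 CPM in KO1 to KO4 and 1.55, 0.0387, 0.378 and 0.153 CPM in WT1 to WT4, so that KO4 had 0 counts while WT1 had 96.

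Paralog group 13 as a whole made up 42.2% (WT1) to 56.5% (WT2) of the summed Hox CPM per kb of a line. Groups 9 to 13 together made up 88.0% (WT1) to 96.5% (KO1), groups 5 to 8 2.95% (KO1) to 10.3% (WT1), and groups 1 to 4 0.517% (KO1) to 1.73% (WT1). The lowest and highest values within each class belonged to the same pair of lines, KO1 and WT1. Means were close between genotypes: the posterior share was 92.1% ± 3.43 (SD, n = 4) in SLMAP3-/- lines and 92.9% ± 3.31 in WT lines.

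**Figure D2:**
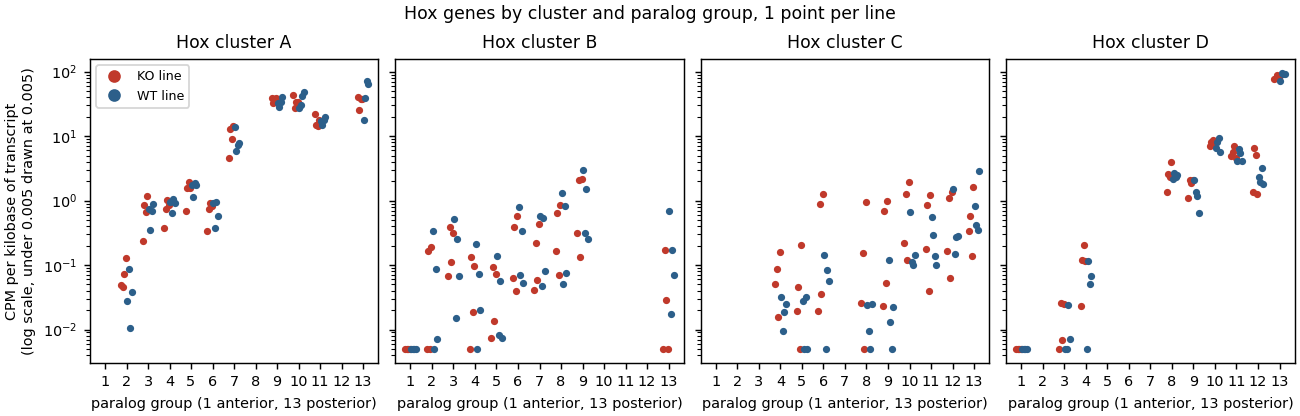
CPM per kilobase of the median annotated transcript (logarithmic axis, values under 0.005 drawn at 0.005) against paralog group in each cluster for 38 Hox genes, with 1 point per gene and line, red for SLMAP3-/- and blue for WT. Hoxd13 is the highest point cloud, at 84.6 CPM per kb on average, and the tested genes of clusters A and D spread less between lines than those of clusters B and C, with Hoxa3 (4.87-fold), Hoxa13 (4.07-fold) and Hoxd12 (5.04-fold) as wider ones.

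Genes of groups 9 to 12 in clusters A and D pattern the limb from its base to the wrist and ankle. Hoxa10 averaged 35.9 CPM per kb, Hoxa9 35.3, Hoxa11 17.3, Hoxd10 7.70, Hoxd11 5.28, Hoxd12 2.94 and Hoxd9 1.55. Genes of central groups lay among them at the median transcript length, Hoxa7 at 9.53 above the 4 of cluster D and Hoxd8 at 2.49 above Hoxd9. Hoxa7 exceeded Hoxd10 in 5 of 8 lines, and with the longest transcripts it averaged 3.79, below Hoxd10 at 7.70. Hoxd8 exceeded Hoxd9 in 8 of 8 lines at the median length and in 4 of 8 with the longest transcripts. At the median transcript length, the order of neighbours was not the same in all lines. Hoxa13 exceeded Hoxa10 in 5 of 8 lines, Hoxa10 exceeded Hoxa9 in 4 of 8, and Hoxd12 exceeded the next gene, Hoxd8, in 4 of 8. At that length these pairs did not differ beyond their spread. With the longest transcripts Hoxa10 averaged 22.0 CPM per kb, above Hoxa13 at 13.4 and Hoxa9 at 9.30. The lowest line of Hoxa10 (16.6) then lay above the highest of Hoxa9 (10.8), and Hoxd12 exceeded Hoxd8 in 7 of 8 lines. Hoxa9 exceeded Hoxa11 in 8 of 8 lines at the median transcript length, but averaged 9.30 CPM per kb against 16.6 for Hoxa11 with the longest transcripts. The levels of Hoxa9 (1.47-fold between lowest and highest line), Hoxa11 (1.54-fold), Hoxd10 (1.62-fold) and Hoxd11 (1.73-fold) were the most even after Hoxd13 among the tested Hox genes.

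Hoxd12, which lies next to Hoxd13 and acts in the distal limb, was less even than its neighbours. It measured 3.41, 16.3, 12.98 and 3.24 CPM in KO1 to KO4 and 5.92, 4.91, 8.08 and 4.62 CPM in WT1 to WT4. KO2 and KO3 were higher than the other 6 lines, and KO4 was the lowest of all, a 5.04-fold range inside the SLMAP3-/- genotype. Hoxd9, a gene of the proximal limb and lumbar region, was at 2.37, 4.44, 4.03 and 4.47 CPM in KO1 to KO4 and 4.43, 2.90, 2.54 and 1.38 CPM in WT1 to WT4, and its lowest line was WT4.

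Central and anterior groups came mainly from cluster A. Hoxa5, needed for lung and lower neck development, averaged 1.53 CPM per kb, while Hoxa4, Hoxa6 and Hoxa3 lay between 0.701 and 0.813 and Hoxa2 at 0.0574. Hoxa3, which acts in the pharyngeal arches and thymus, was the least even tested gene of cluster A. It stood at 0.433, 1.56, 1.19 and 2.11 CPM in KO1 to KO4 and 1.35, 0.639, 1.25 and 1.62 CPM in WT1 to WT4, lowest in KO1 and WT2. Those lines were also the lowest of their genotype for Hoxa4, Hoxa5, Hoxa6 and Hoxa7. In cluster D, Hoxd3 and Hoxd4 did not exceed 0.0600 and 0.305 CPM in any line.

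Clusters B and C separated the lines from one another. The summed level of cluster B ran from 0.475 CPM per kb in KO3 to 7.61 in WT1, a 16.0-fold range, and that of cluster C from 0.462 in KO3 to 9.72 in KO4, a 21.0-fold range. Over the same lines cluster A ranged 1.63-fold (114 to 186 CPM per kb) and cluster D 1.32-fold (88.2 to 116). In CPM not divided by length, cluster A summed to 142 to 219 and cluster D to 212 to 280, so their order depends on that division. In bulk RNA, fewer cells that express a gene and less RNA per cell cannot be told apart.

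For cluster B, KO2 (4.28 CPM per kb), KO4 (4.73), WT1 (7.61) and WT3 (3.84) were high, and KO1 (0.662), KO3 (0.475), WT2 (0.521) and WT4 (0.631) were low, with no line in between. In each of the 4 high lines all 6 tested genes of the cluster lay above the mean of their genotype, and in each of the 4 low lines all 6 lay below it. Hoxb2, Hoxb3, Hoxb4 and Hoxb6 had 10 or more counts only in the 4 high lines. They passed the filter on low counts through those lines, so their agreement was partly set by that filter. High and low lines were split 2 and 2 within each genotype. Hoxb9, a gene of the thoracic and lumbar region and the most abundant of the cluster, measured 0.762, 5.04, 0.321 and 5.29 CPM in KO1 to KO4 and 7.30, 0.755, 3.61 and 0.612 CPM in WT1 to WT4, from 20 to 453 counts. Its lines were 22.7-fold apart, and both genotypes spanned nearly all of that range. Hoxb2, which acts in the hindbrain, was at 0, 0.400, 0 and 0.460 CPM in KO1 to KO4 and 0.806, 0, 0.208 and 0.0170 CPM in WT1 to WT4, with 0 counts in KO1, KO3 and WT2. The 4 untested genes of the cluster stayed at or below 1.55 CPM.

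For cluster C, KO4 (9.72 CPM per kb), KO2 (5.67), WT1 (3.93) and WT4 (3.54) were higher than KO1 (1.04), WT2 (1.01), WT3 (0.996) and KO3 (0.462). The WT4 sum came largely from Hoxc13. All 4 tested genes lay above their genotype mean in KO2, KO4 and WT1 and below it in KO1, KO3 and WT3. Hoxc10, a gene of the lumbar region and hindlimb, was at 0.415, 2.42, 0.225 and 3.70 CPM in KO1 to KO4 and 1.26, 0.213, 0.189 and 0.272 CPM in WT1 to WT4, from 10 to 193 counts. It was above 1 CPM only in KO2, KO4 and WT1. Hoxc11, of the same region, measured 0.364, 1.74, 0.0803 and 2.45 CPM in KO1 to KO4 and 1.13, 0.600, 0.284 and 0.204 CPM in WT1 to WT4, and the same 3 lines were the highest. Hoxc12 was at 0.173, 1.14, 0.0643 and 1.38 CPM in KO1 to KO4 and 1.58, 0.155, 0.284 and 0.289 CPM in WT1 to WT4, again highest in those 3 lines. The untested thoracic genes Hoxc8 and Hoxc9 were at 1.96 and 1.46 CPM in KO4 and 0.320 and 1.02 CPM in KO2, while KO1 and KO3 (at or below 0.0803 CPM) and the WT lines (at or below 0.177 CPM) were low alike.

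**Figure D3:**
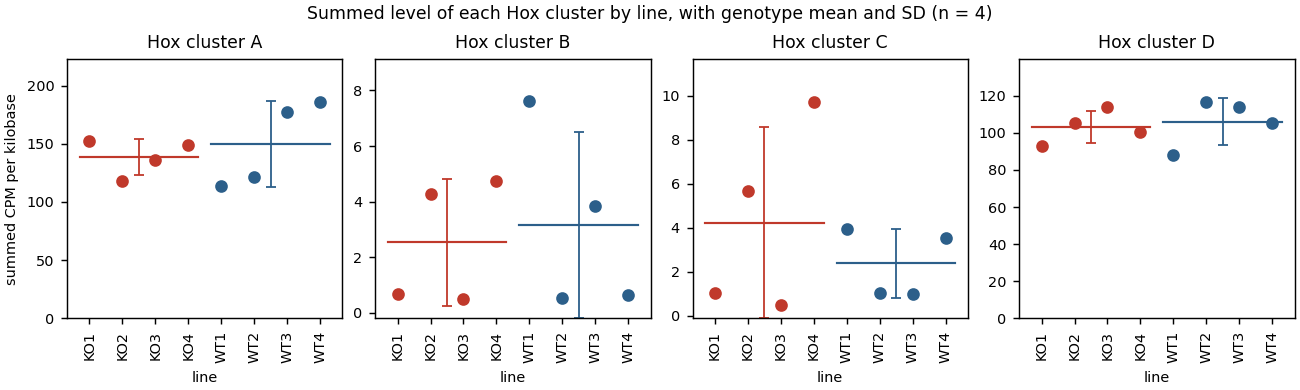
Summed CPM per kilobase of each Hox cluster (linear axes, own scale per cluster) in each line, red for SLMAP3-/- and blue for WT, with horizontal lines at the genotype means and bars of 1 SD (n = 4). Clusters A (114 to 186) and D (88.2 to 116) vary little, whereas cluster B is high in KO2, KO4, WT1 and WT3 and cluster C ranges from 0.462 in KO3 to 9.72 in KO4.

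Spread between lines was measured as the SD of log2 CPM around the genotype mean, with 6 degrees of freedom. Its median was 0.67 over the 26 tested Hox genes and 0.28 over all 15461 tested genes, and 22 of the 26 (84.6%) lay above the median of all genes. The median percentile among all genes was 97.8 for cluster B, 97.2 for cluster C, 72.1 for cluster A and 60.3 for cluster D, and Hoxd13 itself lay at 20.9. Hox genes were also lower than most, with a median log2 CPM of 0.74 against 4.34 for all tested genes, and low counts widen this SD. With edgeR's biological coefficient of variation, which sets counting noise apart, the medians were 0.428 for Hox genes and 0.237 for all genes, and 21 of 26 (80.8%) lay above the latter. Among markers of other cell types, Nes was at 69.5, 155, 134 and 80.6 CPM in KO1 to KO4 and at 409.7, 151, 144 and 89.0 CPM in WT1 to WT4. Krt18, a keratin gene of simple epithelium, was at 0.61, 3.44, 2.27 and 1.496 CPM in KO1 to KO4 and at 3.72, 0.48, 2.48 and 1.70 CPM in WT1 to WT4, lowest in KO1 and WT2. The part of other cell types in the spread of Hox genes was not tested.

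Lines were compared pair by pair by the root mean square difference of log2 CPM over the 26 tested Hox genes. The closest pairs were KO1 and WT2 (0.57), KO2 and WT1 (0.58), KO2 and KO4 (0.64) and KO4 and WT1 (0.65), and the most distant was KO3 and KO4 (2.17). Pairs of unlike genotype had a median of 1.29 (n = 16 pairs) and pairs of like genotype a median of 1.56 (n = 12 pairs). KO3 and WT4, which share a number in their headers, stood at 1.09, rank 10 of 28, and over all 15461 tested genes at 0.73, rank 3 of 28. The correlation between their deviations from the genotype means was 0.133, where pairs of a KO and a WT line ran from -0.160 to 0.187. Since each line enters 7 pairs, these distances are given as a description.

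The study's contrast of genotypes showed no Hox gene that passed the test. In edgeR's quasi-likelihood fit over all 15461 genes, 0 of the 26 tested Hox genes reached an adjusted p of 0.05, where 0.00647% of all genes did, a share that stands for Slmap alone. At an unadjusted p of 0.05 the count was 0 of 26 against 1.81% of all genes. For 0 of 26 did the 4 SLMAP3-/- lines lie wholly outside the 4 WT lines, against 1.25% of all genes. Log2 fold changes were above 0 for 12 genes (46.2%, against 49.5% of all genes) and below 0 for 14, with a median of -0.0144, and the median of all tested genes was -0.0014. DESeq2, the tool of the original analysis, likewise gave 0 Hox genes at an adjusted p of 0.05, where 0.0325% of all genes passed.

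Intervals differed by cluster. The 95% interval of the log2 fold change lay within 1 unit of 0 for 10 of the 26 genes, 6 in cluster A and 4 in cluster D, so a 2-fold change was outside the interval for these alone. Hoxd13 had a log2 fold change of -0.10 ± 0.11 (SE), with an interval from -0.35 to 0.15. Hoxa9, Hoxa10, Hoxa11, Hoxd10 and Hoxd11 had changes between -0.09 and 0.16, with standard errors from 0.13 to 0.21. In clusters B and C all 10 intervals reached beyond 1 unit. That of Hoxb2 ran from -3.73 to 3.14, so neither a loss nor a gain of several fold lay outside it.

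The tested Hox genes with the smallest unadjusted p were Hoxc10, Hoxd9, Hoxa13, Hoxd12 and Hoxc11, each with an adjusted p of 1.00 in edgeR. Hoxc10 had a log2 fold change of 1.79 ± 0.98 (SE) and an interval from -0.45 to 4.04, with KO2 and KO4 above all 4 WT lines and KO1 and KO3 below WT1. Hoxd9 measured 0.44 ± 0.37, Hoxd12 0.61 ± 0.54, Hoxc11 1.06 ± 0.95 and Hoxa13 -0.44 ± 0.39. Single lines moved each of them: Hoxd9 was 0.22 without WT4 and 0.76 without WT1, and Hoxd12 was 0.16 without KO2 and 0.89 without KO4. Hoxc11 was 0.38 without KO4 and 1.67 without WT1, and Hoxa13 was -0.18 without WT3 and -0.71 without WT1, none of them past an adjusted p of 0.05. In DESeq2, which kept 37 Hox genes, 5 (13.5%) had an unadjusted p under 0.05, against 1.63% of all genes. These were Hoxc4, Hoxc6, Hoxc8, Hoxc9 and Hoxc10, all higher on average in the SLMAP3-/- lines and all with an adjusted p of 1.00. All lie in cluster C and had KO2 and KO4 as their highest lines, so they are not 5 separate results. Hoxc6 was at 0.800 and 1.15 CPM in KO2 and KO4, 0.0173 and 0.0321 CPM in KO1 and KO3, and at most 0.129 CPM in WT lines. All but Hoxc10 had failed the filter on low counts in edgeR. Without KO4 the log2 fold change of Hoxc10 fell to 1.06, and without WT1 it was 2.90.

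**Figure D4:**
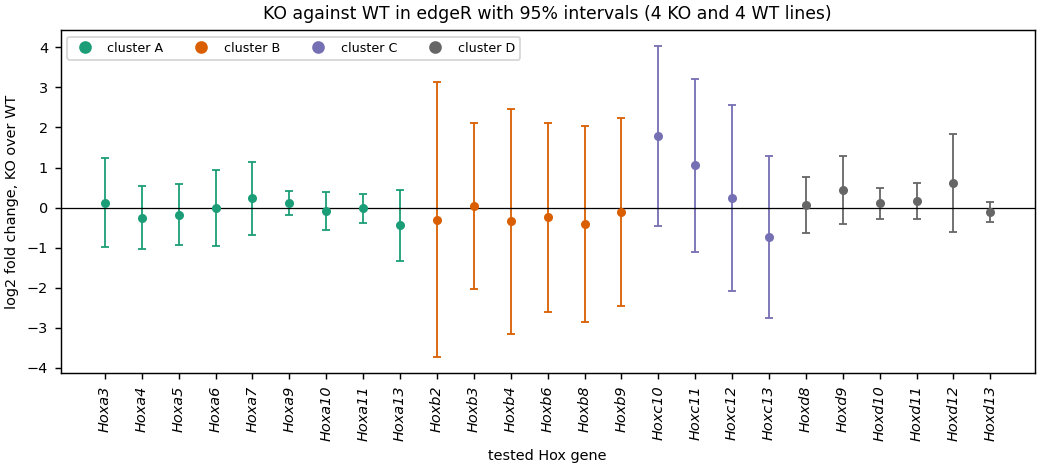
Log2 fold change of each of 25 tested Hox genes, SLMAP3-/- over WT (4 lines each), from edgeR with 95% intervals as bars and coloured by cluster. Every interval crosses 0, the narrowest is that of Hoxd13 (-0.35 to 0.15), and the bars of clusters B and C are several units wide.

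As sums over their members, cluster A had a log2 ratio of SLMAP3-/- to WT means of -0.11, cluster B -0.31, cluster C 0.83 and cluster D -0.04. The SD of the log2 sums within genotypes was 0.28, 1.83, 1.65 and 0.15 in that order, so each ratio was smaller than the spread between lines. Among the posterior groups, group 13 had means of 118 ± 8.48 CPM per kb in SLMAP3-/- lines and 137 ± 33.5 in WT lines (SD, n = 4 each).

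Cofactors of Hox proteins held no gene that passed the test between genotypes. The PBX and MEIS families, homeodomain cofactors that bind DNA together with Hox proteins, had 9 listed members and 9 tested, 0 of which passed an adjusted p of 0.05. Meis2 ran from 11.8 to 22.8 CPM over the 8 lines. Of 39 Polycomb and trithorax genes, the repressors and activators that hold Hox clusters silent or open, 39 were tested and 0 passed, with a median log2 fold change of 0.0044 and values from -0.44 to 0.19. Their spread between lines was low, at a median percentile of 36.7 among all genes.

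Upstream factors gave the same count. Of 23 caudal and retinoic acid genes, 16 were tested and 0 passed. Cdx2 and Cdx4, activators of posterior Hox genes in the tailbud, were at 0 counts in all 8 lines, and Cdx1 did not exceed 0.05 CPM. Cyp26b1, which degrades retinoic acid in the limb, varied from 4.29 CPM in WT1 to 118 CPM in WT4. Rarb, a receptor gene that retinoic acid itself induces, ran from 0.39 to 4.29 CPM.

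Noncoding RNAs of the clusters were next. Of the 18 listed, 11 were found by symbol and 4 were tested, 0 of which passed. Hottip, transcribed beside Hoxa13, was at 1.78, 0.86, 1.91 and 1.69 CPM in KO1 to KO4 and 0.69, 2.30, 3.94 and 3.52 CPM in WT1 to WT4, and like Hoxa13 it was lowest in WT1 and highest in WT3. Hoxa11os, antisense to Hoxa11, was the most abundant at 15.8 to 27.1 CPM; the libraries were stranded, but the strand setting of the read assignment is not given in the sources used here. Hotair, of cluster C, did not exceed 0.33 CPM, its level in KO4.

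Most genes that flank the clusters varied little between lines. Of 22 neighbours, 18 were tested, 0 passed, and their median percentile of spread was 16.2, with 4 of the 18 above the median of all genes. Among these 4, Jazf1 ran from 1.69 to 8.03 CPM and Calcoco1, near cluster C, from 35.9 to 77.0 CPM. Beside Hoxd13, the homeobox gene Evx2 was at 6.03 to 10.9 CPM and Lnpk at 45.3 to 59.0 CPM, while Evx1, which flanks Hoxa13, did not exceed 0.12 CPM. Beside clusters B and C, Snx11 (16.0 to 23.4 CPM), Cbx1 (38.0 to 49.0 CPM) and Cbx5 (332 to 429 CPM) each lay in a narrow range over the 8 lines.

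Transcription factors of the limbs and other body regions were uneven between lines, as were clusters B and C. Of 45 listed, 34 were tested and 34 had an SD above the median of all genes, with a median percentile of 91.4. None passed an adjusted p of 0.05, and 2 of 34 (5.88%), Hand2 (log2 fold change -1.56) and Foxf1 (-1.21), had an unadjusted p under 0.05, against 1.81% of all genes. Named genes of this and the other lists, apart from Tbx5, Tbx4, Pitx1, Isl1, Barx1, Lmx1b and Pax9, were chosen after their values were seen. Limb mesenchyme genes were high in every line, Prrx1 at 417 to 972 CPM and Prrx2 at 53.8 to 165 CPM.

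Tbx5, which starts forelimb outgrowth, was at 3.58, 2.16, 26.2 and 0.63 CPM in KO1 to KO4 and at 0.63, 33.3, 12.3 and 26.8 CPM in WT1 to WT4. The hindlimb genes Tbx4 and Pitx1 were present in all 8 lines. Tbx4 measured 76.9, 64.6, 23.2 and 45.0 CPM in KO1 to KO4 and 16.7, 11.5, 60.7 and 25.1 CPM in WT1 to WT4. Pitx1 measured 47.6, 27.6, 22.7 and 70.8 CPM in KO1 to KO4 and 37.9, 6.50, 24.9 and 10.7 CPM in WT1 to WT4. Isl1, which marks the early hindlimb field, did not exceed 0.95 CPM. KO2, KO4 and WT1, the 3 lines with Hoxc10 above 1 CPM, were the 3 lowest for Tbx5, and WT2, the highest line for Tbx5, was the lowest for Tbx4 and Pitx1. With 8 lines this is a description of values, and no correlation was tested.

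**Figure D5:**
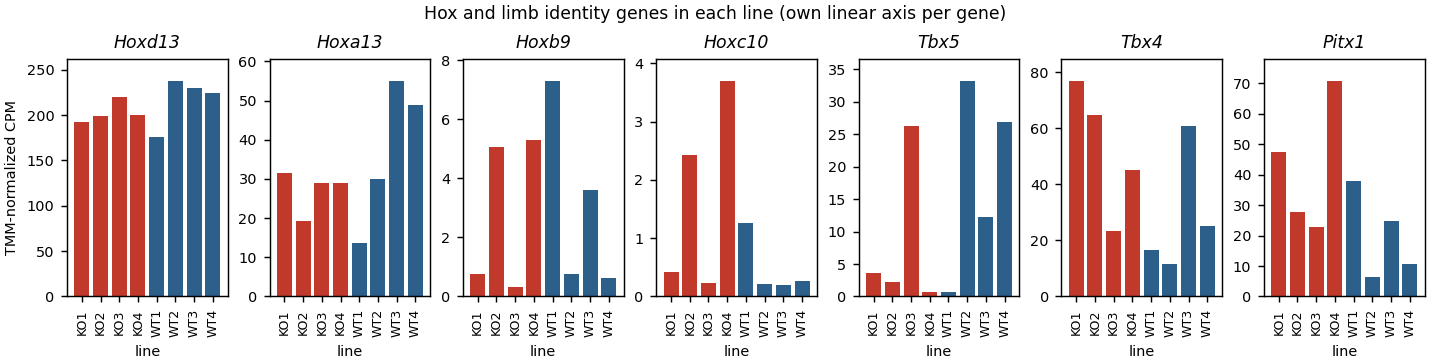
TMM-normalized CPM (linear axis from 0, own scale per gene) of 4 Hox genes and of the limb identity genes Tbx5, Tbx4 and Pitx1 in each line, red for SLMAP3-/- and blue for WT. Hoxd13 is even (176 to 238 CPM). Hoxc10 is high in KO2, KO4 and WT1, and Tbx5 is lowest in those same lines, at 0.63 to 2.16 CPM. Hoxb9 is high in these lines and also in WT3, which is not among the lowest for Tbx5.

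The other factors with the largest spread included Barx1, Lmx1b and Pax9. Barx1, active in stomach and tooth mesenchyme, was at 0.02, 0.68, 0.06 and 0.13 CPM in KO1 to KO4 and 0.00, 2.65, 3.61 and 1.97 CPM in WT1 to WT4. Lmx1b, which specifies the dorsal side of the limb, ran from 3.18 CPM in KO4 to 89.7 CPM in KO1. Pax9, a gene of vertebral and tooth precursors, was highest in KO4 at 22.0 CPM and lowest in WT2 at 0.70 CPM. Otx2, a head gene, was at 0 counts in all 8 lines. The labels do not give the body region from which the cells of each line grew out.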

How the data were processed

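RNA from 4 SLMAP3-/- and 4 WT immortalized MEF lines had been sequenced from stranded mRNA libraries (Illumina Stranded mRNA), 1 per line. The authors assigned reads to the GRCm38 GENCODE M25 transcriptome with Salmon and deposited length-scaled estimated counts per gene, 1 column per line, not normalized between lines, with 49879059 to 63322486 counts per line; the Salmon version is not given in the sources used here. A second deposited table holds the authors' own fold changes and p-values and was not used. Estimated counts were rounded to whole numbers. Genes were filtered with edgeR's filterByExpr (minimum count 10), normalized by TMM and tested with edgeR 4.0.16's quasi-likelihood fit (R 4.3.3) of SLMAP3-/- against WT over 15461 genes, with Benjamini-Hochberg adjustment and a threshold of 0.05; 26 of the 39 Hox genes passed the filter. DESeq2 1.42.0 and limma-voom (limma 3.58.1) were alternatives. The pipeline was tested on simulated counts first.

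Levels are TMM-normalized CPM. Levels per kilobase divide CPM by the median length of a gene's annotated transcripts in GENCODE M21 (GRCm38), which held all 39 symbols, and can miss differences in transcript use between lines. Spread is an SD on the log2 CPM scale (prior count 2). Shared stretches of 31 bases were counted over all annotated transcripts. Homeobox sequences came from the M21 transcripts and promoters from RefSeq (GRCm38.p6). Tables were handled with pandas 2.3.3 and figures drawn with matplotlib 3.10.9.

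The Hox genes, gene lists and tests were chosen with earlier results of these data known. Values in every line are given for the highest gene per kilobase and the tested gene with the largest spread in each cluster, all group 13 genes and the 5 tested Hox genes with the smallest unadjusted p; of the limb and body-region factors, for the 5 with the largest spread and for Tbx5, Tbx4, Pitx1 and Isl1. Other genes with values were chosen after these were seen. A few genes are not reported here by name or in the figures, but stay in counts, sums and tests. Sums over clusters and shares of paralog groups were given no test. Deviations of KO and WT lines with the same replicate number had correlations over 15461 genes of -0.157, 0.058, 0.187 and -0.003. Those of KO and WT lines with unlike numbers ran from -0.160 to 0.182. The numbers were therefore not treated as pairs.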

Additional observations from a re-analysis of the deposited data

Results flagged for a closer look

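In 52 groups of 4 lines (26 tested Hox genes in each genotype), 2 had a line whose gap to its nearest neighbour, on the log2 CPM scale, took up most of the range of the group beyond Dixon's critical value. Chance gives about 1 in 20, or 2.6 of 52. Hoxa5 in WT2 was the lowest of its 4 lines at 2.11 CPM, against 3.29 to 3.46 CPM in the other WT lines, a gap of 0.896 of the range. Hoxd9 in KO1 was the lowest of its 4 lines at 2.37 CPM, against 4.03 to 4.47 CPM in the other SLMAP3-/- lines, a gap of 0.838 of the range.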

How the results depend on the processing

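The count of 0 Hox genes at an adjusted p of 0.05 stayed 0 under DESeq2, limma-voom, edgeR with DESeq2 size factors, all genes kept at low counts, a minimum of 10 counts in every line, robust empirical Bayes and each fit without 1 line, as did that of 0 among cofactors, regulators and positional genes under DESeq2 and without 1 line. With the replicate number as a block the count was also 0 for both. Whether lines of the same replicate number share an origin is not stated in the sources, and the numbers in their headers differ. Of 162 values for the 11 tested Hox genes named by the rule, 14 had the opposite sign, 12 of them in fits without 1 line, and none passed the threshold. Under limma-voom, Hoxa3 changed from 0.12 to -0.037 and Hoxc12 from 0.24 to -0.12. Without 1 line, log2 fold changes ran from -0.20 to 0.41 for Hoxa3, -0.59 to 0.78 for Hoxb9, -1.01 to 1.48 for Hoxb2, -1.69 to 0.33 for Hoxc13 and -0.35 to 1.49 for Hoxc12; WT1 moved Hoxb9 and Hoxb2 furthest, WT1 and KO4 Hoxc12, and WT4 turned Hoxc13 (0.33). Log2 ratios of cluster sums ran from -0.22 to 0.01 (A), -0.80 to 0.61 (B), 0.01 to 1.21 (C) and -0.12 to 0.01 (D). At 0.1 CPM and 10 counts, 3 genes in place of 13 were detected in no line and 19 in place of 13 in all 8. With anterior groups ending at 3 in place of 4, their mean share was 0.724% in place of 1.13%, since a group was moved to the central class. The mean posterior share stayed between 92.0% and 93.2% without 1 line. With 4 lines a genotype and SDs above 1 log2 unit in clusters B and C, only several-fold changes could pass there.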
